A study of Mus musculus with 20 samples.

Results

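Peaks of Oct4, Sox2 and Sox17 were read at 2 mouse loci, Dab2 on chromosome 15 and Pdgfra on chromosome 5. Members were all peaks of 18 lists whose midpoint lay between 6200000 and 6440000 on chromosome 15 or between 75480000 and 75660000 on chromosome 5 (build mm9). These windows held 187 of 765133 peaks: 55 at Dab2 from 16 libraries and 132 at Pdgfra from all 18. In mm9 Dab2 lies at about 6.25 to 6.39 Mb and Pdgfra at about 75.55 to 75.59 Mb, and both genes read from the lower to the higher coordinate. Distances are given from these approximate ends, so exons, introns and UTRs were not assigned.

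Chromatin immunoprecipitation and sequencing (ChIP-seq) was done in KH2 embryonic stem (ES) cells and in F9 embryonal carcinoma cells. The ES lines had received doxycycline at 1 µg/ml, which induced a V5-tagged Sox2, Sox17, Sox2KE or Sox17EK. Sox2KE and Sox17EK are Sox2 and Sox17 in which a lysine and a glutamate were exchanged, so that Sox2 and Sox17EK carry the lysine and Sox2KE and Sox17 the glutamate. F9 cells were untreated or had received 1 µM retinoic acid (F9+RA), an agent known to turn F9 cells towards primitive endoderm. There were 8 Sox libraries of ES cells (replicates A and B of 4 proteins), 7 Oct4 libraries of the same lines (A and B, but only A where Sox17 was induced) and 3 libraries of F9 cells. The last were Oct4 in F9, Oct4 in F9+RA and Sox17 in F9+RA.

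Sox2, Sox2KE and Sox17EK were precipitated through V5 alone, Sox17 of F9+RA cells through Sox17 alone, and Sox17 of ES cells has both antibodies named. When Sox17 lists are set against Sox2 lists, the effect of the antibody and that of the protein cannot be told apart. The Oct4 libraries of ES cells name Oct4 and V5 antibodies and those of F9 cells Oct4 only. The ES libraries of a protein come from 1 line in which the Sox protein was induced beside the cells' own. Nothing states that replicates were separate cultures, and F9 conditions had no replicate. No RNA was measured, so the cell types could not be checked against the expression of their markers.

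Primitive endoderm is the extraembryonic layer that arises beside the epiblast in the blastocyst and goes on to form the yolk sac endoderm. Dab2 encodes an endocytic adaptor protein that is needed for the visceral endoderm to take up and sort surface receptors. Pdgfra encodes the alpha receptor for platelet-derived growth factor, a receptor tyrosine kinase that is among the early surface markers of primitive endoderm. Sox17 is an HMG-box factor of endoderm, while Sox2 belongs to the same family and works with the POU factor Oct4 in pluripotent cells. Sox and Oct4 proteins can bind side by side on composite elements in which a SOX motif and an octamer are joined, in the canonical form with 1 base more between them than in the compressed form.

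The sequences before the annotated starts of the genes are shown because they are the regulatory sequence at these loci that could be read by gene name. RefSeq (GRCm38.p6) gave 2 starts for Dab2 and 1 for Pdgfra, all on the plus strand. The 250 bases before each start follow, 5′ to 3′, with TTGT, ATGCA and their reverse complements in capitals. The lists use another build, so no peak was placed on these letters.

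Dab2, start 1: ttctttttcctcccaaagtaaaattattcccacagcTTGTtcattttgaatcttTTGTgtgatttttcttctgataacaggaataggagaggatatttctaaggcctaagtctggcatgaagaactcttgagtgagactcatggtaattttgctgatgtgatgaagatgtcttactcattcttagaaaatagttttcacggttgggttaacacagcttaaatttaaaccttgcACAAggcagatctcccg
Dab2, start 2: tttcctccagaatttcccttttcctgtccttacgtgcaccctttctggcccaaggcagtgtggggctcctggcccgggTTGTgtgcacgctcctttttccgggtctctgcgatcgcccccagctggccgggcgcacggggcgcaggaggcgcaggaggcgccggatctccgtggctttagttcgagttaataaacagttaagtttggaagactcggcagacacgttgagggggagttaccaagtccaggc
Pdgfra: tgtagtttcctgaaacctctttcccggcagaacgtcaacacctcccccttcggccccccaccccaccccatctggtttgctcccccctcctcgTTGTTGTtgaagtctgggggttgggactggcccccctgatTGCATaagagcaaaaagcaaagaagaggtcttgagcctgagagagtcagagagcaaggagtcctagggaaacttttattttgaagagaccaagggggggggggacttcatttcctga

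No match on either strand was found in these 3 sequences for the SOX core ACAAT, the octamer ATGCAAAT, the canonical element (TTGT, 1 base of any kind, ATGCAAA) or the compressed element (TTGT joined directly to ATGCAAA). Both composite elements hold the first 7 bases of the octamer, so their matches overlap partial octamers. Over 32851 RefSeq promoters of that length, 27.7% held ACAAT, 1.6% the octamer, 0.0335% the canonical and 0.0304% the compressed element. The shorter motif TTGT, searched after those 4 had no match, occurred 3 times before Dab2 start 1, 1 time before start 2 and 2 times before Pdgfra, and in 76.7% of all promoters. ATGCA, which is the first part of the octamer, occurred 1 time before Pdgfra, read on the minus strand, and in 28.8% of all promoters. The sequence before Dab2 start 1 had 36.8% G and C, against 60% before start 2 and 54.4% before Pdgfra.

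The lists ranged from 5836 peaks (Sox17 ES replicate B) to 84196 (Oct4 F9+RA), and read depth was unknown. Each peak carries the authors' score, which was never below 50 and never above 3100, a value that 2012 peaks share. Scores order the peaks within a list, and a rank of 1% means that 1% of the peaks of that list scored as high or higher. Scores of different lists are printed side by side but were not compared as levels. Overlapping peaks of all lists were merged into regions, 24 at Dab2 and 28 at Pdgfra.

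At Dab2 the Oct4 list held more peaks in F9+RA cells than in untreated F9 cells, and Sox17 was mapped in F9+RA cells only. The Oct4 list of F9 held 1 peak in the Dab2 window, that of F9+RA 13 and the Sox17 list of F9+RA 18. Per 10000 peaks of each list this was 0.155 for Oct4 in F9 (exact 95% interval 0.00392 to 0.863), 1.54 for Oct4 in F9+RA (0.822 to 2.64) and 4.53 for Sox17 in F9+RA (2.68 to 7.15). All intervals of this kind are Clopper-Pearson intervals, they cover counting error only, and peaks near each other are not independent. The share of Oct4 peaks at Dab2 was 9.97 times as large in F9+RA as in F9, and the ends of the 2 intervals overlapped slightly. The whole F9+RA list was 1.3 times as long. Nonoverlapping windows of the same length along the genome give the background: 73% of 10981 held as many Oct4 F9 peaks or more, 21.5% as many Oct4 F9+RA peaks and 2.79% as many Sox17 F9+RA peaks.

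**Figure D1:**
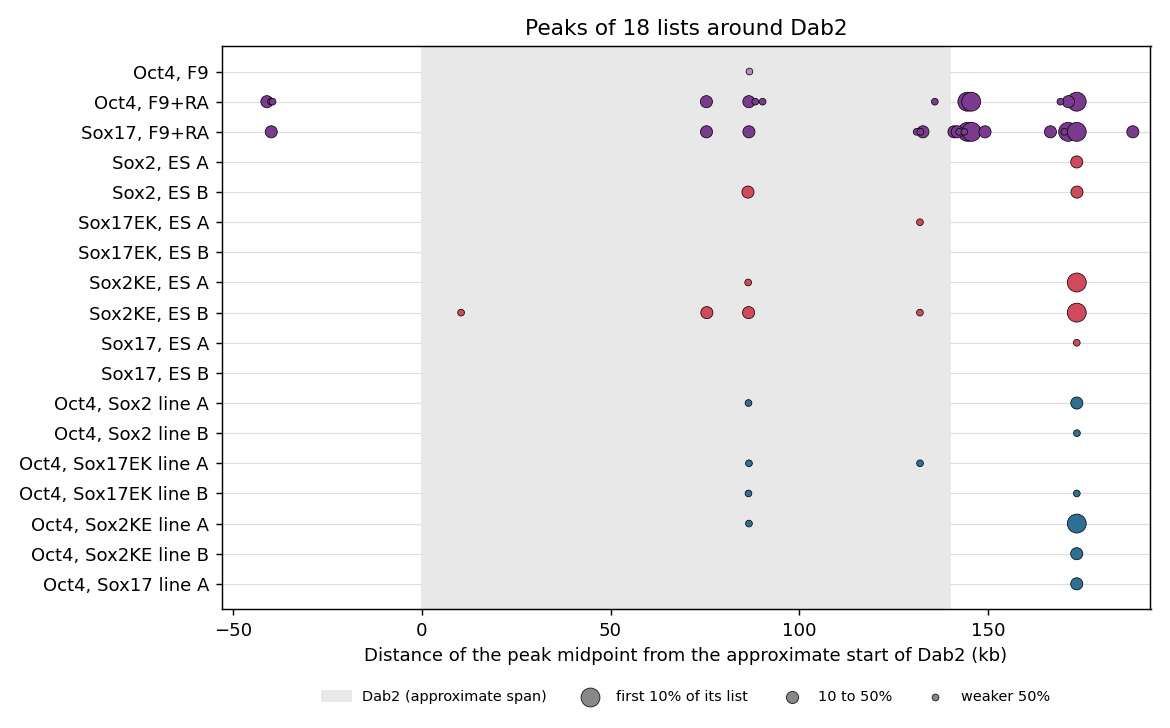
Peaks of the 18 lists (1 line each) in the Dab2 window, by the distance of the peak midpoint from the approximate start of the gene in kb; large circles are peaks in the first 10% of their list, and grey marks the gene. Oct4 in F9 has 1 small circle, whereas Oct4 and Sox17 in F9+RA have large circles just past the end of the gene, and a column of circles about 173 kb from the start runs through 13 lists.

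The strongest Dab2 region lay 33.5 kb past the approximate end of the gene, on the side of C9, the next protein-coding gene. The position of C9 was not read in mm9, so whether the region lies before or within C9 was not determined. The region spanned 6423106 to 6423848 and had a peak in 13 of 18 lists. In F9+RA cells the Sox17 peak scored 1657 and ranked 23 of 39768 peaks (0.0578%), and the Oct4 peak scored 1500.3 and ranked 498 of 84196 (0.591%). Untreated F9 cells had no Oct4 peak there. The first 1% of 2 F9+RA lists thus met in a region that the F9 list left empty.

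In ES cells the same region was held by both Sox2 and both Sox2KE libraries. The Sox2 peaks scored 201 in A (rank 19.8%) and 201 in B (20.3%), and the Sox2KE peaks 344 in A (9.42%) and 836 in B (5.22%). Both Sox2KE libraries ranked the region above both Sox2 libraries, also by plain rank (3120 and 3744 against 6393 and 4862). Sox17 of ES cells had a peak of score 64.2 in A (70.6%) and none in B, which is the shortest list of the series. Neither Sox17EK library had a peak there.

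Oct4 of ES cells had a peak at the region in 6 of 7 libraries. In the Sox2KE line it scored 610.4 in A (rank 7.08%) and 179 in B (38.2%), and in the Sox17 line 139.9 (38.3%). In the Sox2 line it scored 465 in A (20.2%) and 55.8 in B (90.1%). In the Sox17EK line it scored 84.1 in B (67.1%) and had no peak in A. Glutamate lines ranged from 7.08% to 38.3% and lysine lines from 20.2% to no peak, so the groups overlapped.

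The next strongest pair at Dab2 lay just past the gene and was seen in F9+RA cells alone among the 18 libraries. Where this pair lies relative to the start of C9 was not determined. At 6394066 to 6394979, 4.52 kb past the approximate end, the Sox17 peak scored 1027 and ranked 70 (0.176%), and the Oct4 peak scored 534 (5.83%). At 6395229 to 6395972, 5.6 kb past the end, the Sox17 peak scored 395 (1.48%) and the Oct4 peak 400.6 (9.48%). Neither Oct4 in F9 nor any of the 15 ES libraries had a peak in these regions. A weaker region of the same kind, 6420870 to 6421514, had a Sox17 score of 197 (6.71%) and an Oct4 score of 101.9 (46.3%).

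Inside the gene the most widely shared region was 6336044 to 6337080, with peaks in 10 lists. In F9 cells the Oct4 peak scored 54.7 and lay near the bottom of its list (92.8%), while in F9+RA it scored 298 (14.6%). The Sox17 peak of F9+RA scored 106 (21.3%). This was the 1 Dab2 region in which both Oct4 lists of F9 cells had a peak, and its rank was higher after retinoic acid. In ES cells Sox2KE scored 247 in B (28.9%) and 61.5 in A (79.7%), and Sox2 94.3 in B (49.9%), with none in A. Oct4 peaks there ranked 52.6% and 74.6% in the Sox17EK line (A and B), 53.1% in the Sox2 line (A) and 53.5% in the Sox2KE line (A), and no peak of Sox17 or Sox17EK in ES cells was found.

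The other 14 Sox17 peaks of F9+RA cells at Dab2 were weaker, with scores from 51 to 106. The first of them, 6209910 to 6210373, lay before the gene with a score of 82.3 and met 2 Oct4 F9+RA peaks of 79 and 56.3. Within the gene, the peak at 6325160 to 6325664 scored 86.5 and met an Oct4 F9+RA peak of 289 and a Sox2KE B peak of 148. The peaks at 6380902 to 6381227, 6381931 to 6382192 and 6382602 to 6382864 scored 51, 60.6 and 77.4. Of these 3 peaks only the middle one met peaks of other lists, which were Sox2KE B (118), Sox17EK A (58.5) and Oct4 in Sox17EK line A (87).

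Past the gene a run of 4 Sox17 peaks led up to the pair named above and was not met by any other list. They lay at 6390692 to 6391207 (score 91.5), 6391626 to 6392020 (95.2), 6392164 to 6392478 (52.5) and 6393501 to 6393874 (59.2). Peaks at 6398987 to 6399362 (74.1), 6416315 to 6416673 (93.4), 6419960 to 6420363 (55.4) and 6438128 to 6438523 (86.8) also had no partner. The remaining Sox17 peak is that of the 10-list region inside the gene (6336320 to 6336982).

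Of the 24 Dab2 regions, 19 were held by F9+RA lists alone and 5 had a peak in an ES list. Of the 16 regions seen in 1 library, 10 belonged to Sox17 F9+RA, 5 to Oct4 F9+RA and 1 to Sox2KE B. The shares of all merged regions held by F9+RA lists alone, by an ES list or by 1 library were not counted. Whether these counts are unusual for Dab2 was therefore not tested. By position, 2 regions lay before, 9 within and 13 past the gene. Between 6210671 and 6325081, a stretch that holds the approximate start of Dab2, the only peak of any list was a Sox2KE B peak at 6260205 to 6260639 (score 71.2, rank 75.9%).

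At Pdgfra Oct4 peaks were numerous before retinoic acid as well as after it. The Oct4 list of F9 held 13 peaks in the window, that of F9+RA 23 and the Sox17 list of F9+RA 17. Per 10000 peaks this was 2.01 (exact 95% interval 1.07 to 3.44), 2.73 (1.73 to 4.1) and 4.27 (2.49 to 6.84). The Oct4 share was 1.36 times as large in F9+RA as in F9, with intervals that overlapped. The F9 interval lay above that of the longer Dab2 window. Of 14649 windows of the same length, 10.3% held as many Oct4 F9 peaks or more, 4.53% as many Oct4 F9+RA peaks and 1.69% as many Sox17 F9+RA peaks.

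**Figure D2:**
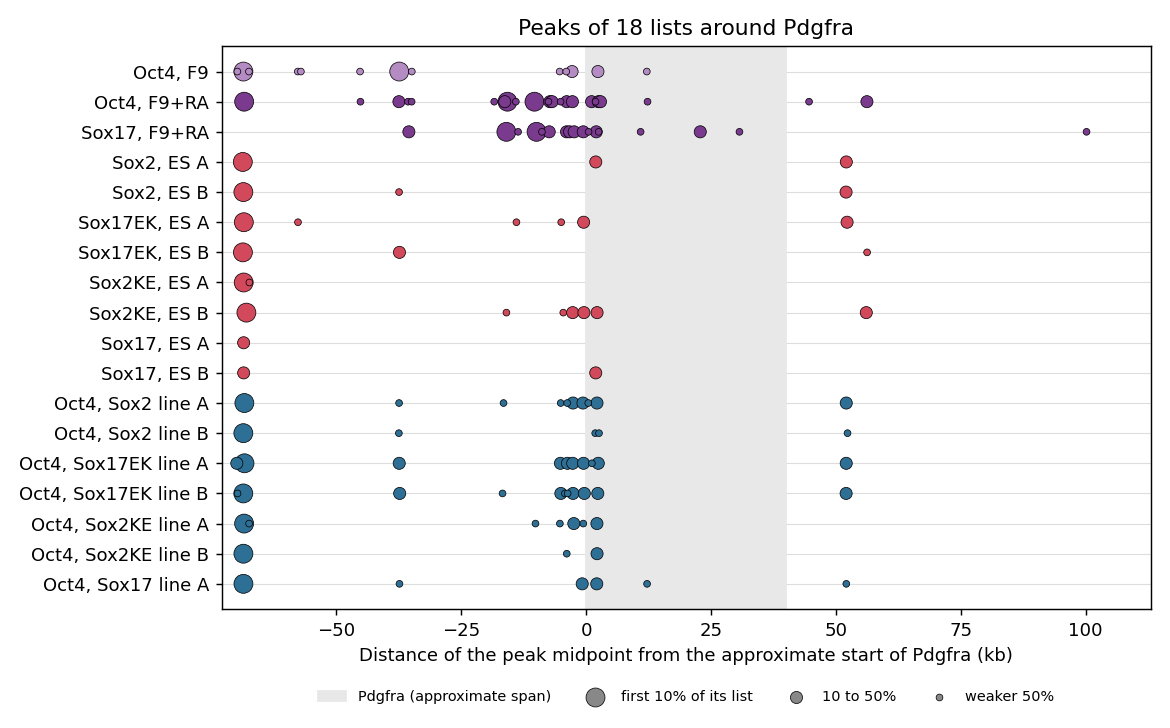
Peaks of the 18 lists (1 line each) in the Pdgfra window, by the distance of the peak midpoint from the approximate start of the gene in kb; large circles are peaks in the first 10% of their list, and grey marks the gene. A column of peaks 68 kb before the start is filled in every list but Sox17 F9+RA, and most peaks of F9+RA cells lie between 20 kb before and 3 kb past the start.

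The strongest region of the Pdgfra window lay far from the gene, 68.2 kb before its approximate start on the side of the homeobox gene Gsx2. It spanned 75480660 to 75482970 and had a peak in 17 of 18 lists, the exception being Sox17 F9+RA. The Oct4 peak of F9 scored 2952 (rank 177 of 64582, 0.274%) and that of F9+RA 1136 (rank 997 of 84196, 1.18%). Oct4 in ES cells ranked it between 0.0937% (Sox17EK line A, score 3100) and 3.45% (Sox2KE line B, score 811.7). Lists of all 7 Oct4 ES libraries thus had it in their first 4%.

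The Sox proteins of ES cells ranked the region in the order of Sox2, Sox17EK, Sox2KE and Sox17. Sox2 scored 771 in A (1.9%) and 705 in B (1.83%), and Sox17EK 859 in A (2.39%) and 342 in B (2.9%). Sox2KE scored 524 in A (4.56%) and 846 in B (5.08%), and Sox17 185 in A (75480912 to 75481914, 12.5%) and 137 in B (75480896 to 75481937, 15.6%). All 4 lysine libraries ranked it above all 4 glutamate libraries as a share of the list, and no protein overlapped the next. By plain rank the groups overlapped, from 439 to 1065 in lysine and from 912 to 3639 in glutamate libraries, since the Sox17 lists are short. This is 1 region among many, and the difference was not tested.

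The region nearest to it with many lists was 75512204 to 75512903, with peaks in 9. The Oct4 peak of F9 scored 515 (rank 6202, 9.6%) and that of F9+RA 167 (rank 23767, 28.2%). In ES cells Oct4 scored 188 and 156 in the Sox17EK line (A and B), 113 and 59 in the Sox2 line and 68.2 in the Sox17 line, and had no peak in the Sox2KE line. Among Sox proteins it was held by Sox17EK B (109.8) and Sox2 B (54.5). No glutamate Sox library and no Sox17 F9+RA peak was found in it.

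Regions in the first 10% of both F9+RA lists lay 16 and 10 kb before the start of Pdgfra. At 75533001 to 75534559 the Sox17 peak (75533724 to 75534322) scored 413 and ranked 543 (1.37%), beside Oct4 F9+RA peaks of 504 (6.48%) and 94.7. At 75539134 to 75540523 the Sox17 peak (75539593 to 75540523) scored 329.6 and ranked 897 (2.26%), beside an Oct4 F9+RA peak of 486 (6.86%). Oct4 in F9 had no peak in either region. In ES cells the first held weak peaks of Sox2KE B (59.1), Oct4 in Sox17EK line B (67.9) and Oct4 in Sox2 line A (56), and the second 1 peak of Oct4 in Sox2KE line A (61.9).

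Around the approximate start itself, 3 regions from 75544247 to 75553322 carried peaks of many lists. The first, 75544247 to 75547913, chains 25 peaks of 10 lists, some of which do not overlap each other. In F9 cells its strongest Oct4 peak scored 153 (40.3%) and in F9+RA 275.8 (16.2%). In ES cells the strongest Oct4 peak of each list scored 344 and 286 in the Sox17EK line (A and B, 27.8% and 20%), 212 in Sox2 line A (41.7%), and 159 and 117 in the Sox2KE line (A and B, 39.8% and 53.8%). Sox2KE B scored 266 (26.9%) and Sox17EK A 58.7 (83%). Sox17 F9+RA had 3 peaks in it, 75545767 to 75546359 (90.6), 75546412 to 75546937 (75.5) and 75547301 to 75547880 (145). It had no peak of Sox2 or Sox17 in ES cells.

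The middle region, 75548736 to 75550764, had a peak in 8 lists but in neither Oct4 list of F9 cells. Its Sox17 F9+RA peaks were 75549111 to 75549721 (score 110.2, rank 20%) and 75550270 to 75550686 (52.7). Oct4 in the Sox17EK line scored 428 in A (22.3%) and 375 in B (14.4%). In the other lines Oct4 scored 204 in Sox2 line A (42.8%), 144 in the Sox17 line (37%) and 68.7 in Sox2KE line A (76.9%). Sox2KE B scored 148 and Sox17EK A 88.9. The Sox17 peaks there thus overlapped no Oct4 peak of F9+RA cells, whereas 5 Oct4 lists of ES cells had a peak in the region. An Oct4 F9+RA peak at 75550848 to 75551325 (score 102, rank 46.3%) lay just past the region, close to the second Sox17 peak.

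The last of them, 75551526 to 75553322, had 17 peaks of 13 lists. Oct4 scored 281 in F9 (21.7%) and 177 in F9+RA (26.5%), and all 7 Oct4 libraries of ES cells had a peak, from 105 in Sox2 line B to 499 in Sox17EK line A. Sox17 F9+RA scored 154 (75551726 to 75552305, rank 11%) and 56.4 (75552328 to 75552662). Sox2KE B scored 264, Sox2 A 108 and Sox17 B 96 (75551545 to 75552289, rank 30.6%). That Sox17 B peak was the only peak of Sox17 in ES cells near the gene, and Sox17 A had none.

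A region past the gene, 75601451 to 75602701, was found in ES cells only. Oct4 scored 596 and 284 in the Sox17EK line (A and B), 461 and 63.1 in the Sox2 line and 94.5 in the Sox17 line. Sox2 scored 248 in A (14.9%) and 152 in B (28.9%), and Sox17EK 103 in A. Sox2KE, Sox17 and the Oct4 libraries of the Sox2KE line had no peak there, nor had any of the 3 libraries of F9 cells.

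The other Sox17 F9+RA peaks of the Pdgfra window were weak. Before the gene they lay at 75514265 to 75514730 (90.2), 75536220 to 75536516 (55), 75541010 to 75541276 (51.8) and 75542335 to 75542869 (88.8). The first and the last of these 4 met Oct4 F9+RA peaks, of 86.2 and of 79 and 107. Within and past the gene they lay at 75560740 to 75561062 (66.7), 75572622 to 75573071 (75.2), 75580523 to 75580860 (63.9) and 75650030 to 75650354 (66.3), and none of those 4 met another list. Of the 28 Pdgfra regions, 14 had a peak in an ES list, 18 lay before, 6 within and 4 past the gene. The share of all merged regions with a peak in an ES list was not counted.

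**Figure D3:**
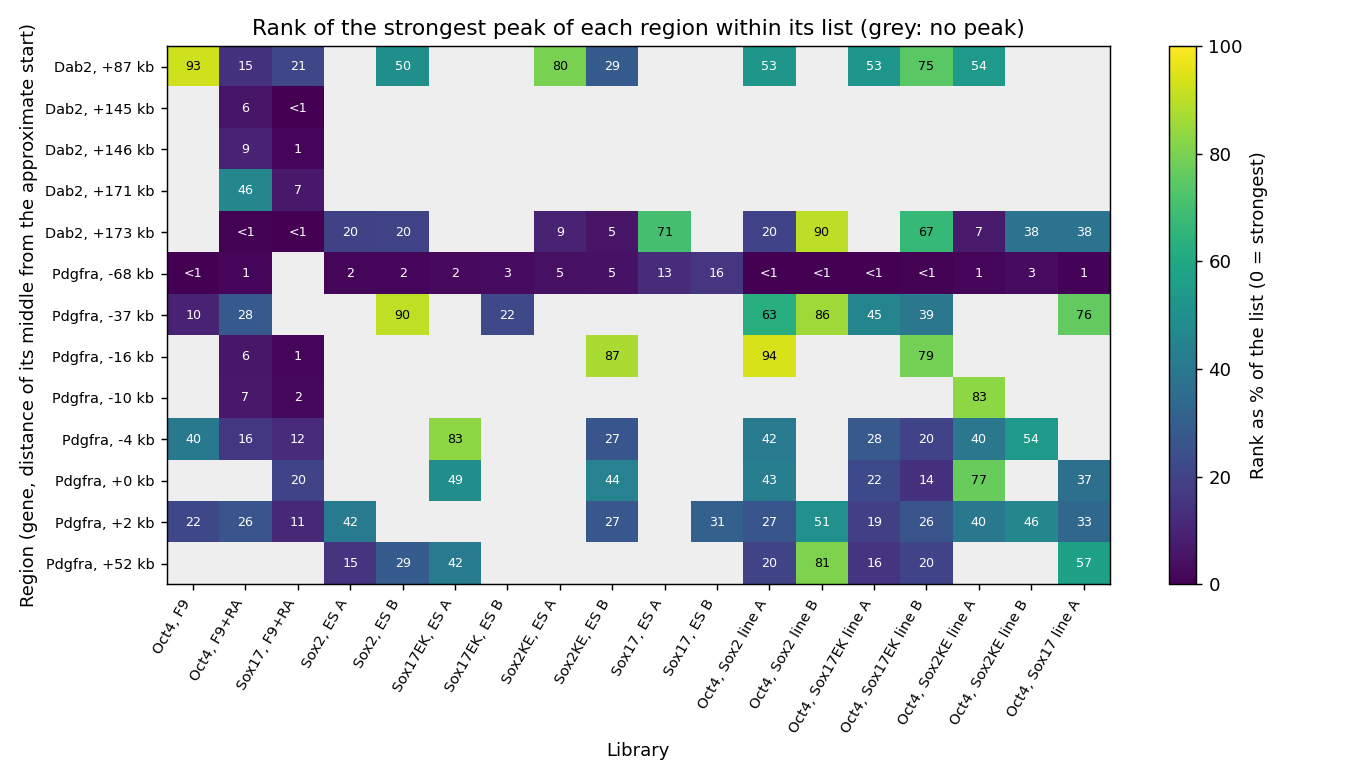
Rank of the strongest peak of each library (columns) in the 13 regions described singly (lines, named by gene and distance from the approximate start in kb), as a percentage of the list, where 0 is the strongest peak and grey means no peak. Dark cells of Dab2 stand under Oct4 and Sox17 in F9+RA. In the Dab2 line at 173 kb they also stand under ES lists, among them both Sox2KE libraries and Oct4 in Sox2KE line A. The darkest line of Pdgfra, 68 kb before its start, is dark in all lists but Sox17 F9+RA.

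To compare F9 with F9+RA, the peaks of the 2 Oct4 lists were merged into regions and sorted by the list that held them. At Dab2, 12 of 13 regions had a peak in F9+RA and none in F9 (92.3%, exact 95% interval 64 to 99.8), against 36.1% of all 99611 regions. None had a peak in F9 alone, against 20.6% of all, and 1 had both. At Pdgfra 12 of 25 had a peak in F9+RA alone (48%, interval 27.8 to 68.7), 4 in F9 alone (16%, 4.54 to 36.1) and 9 in both, against 43.3% of all. The interval at Dab2 lay above the share of all regions and that at Pdgfra included it. With 1 library a condition these counts compare 2 lists, and no test of retinoic acid was possible.

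With both lists taken at the length of the shorter, 8 Dab2 regions stayed F9+RA only and 0 F9 only, and Pdgfra had 10 and 7 (background 25.5% and 28.9%). A stricter count took a region only if its peak was in the first 50% of its list and the other list had none. Of the same 13 and 25 regions, Dab2 then had 6 and 0, and Pdgfra 7 and 0 (background 8.91% and 3.78%). In this setting the share with F9+RA only lay above the background at both genes. With peaks matched by midpoints within 200 bp, Dab2 had 12 and 0, and Pdgfra 14 and 4 (background 43% and 25.7%). For the equal-length and midpoint settings the totals of regions in the windows are not given, so those counts are not shares. The 4 Pdgfra regions of F9 alone were weak ones, with scores of 56.7, 57.2, 70.8 and 73.2. Of the 9 shared Pdgfra regions, 5 ranked higher in F9+RA and 4 in F9 as a share of the list, and 3 and 6 by plain rank, so the tally depends on how the lists of unequal length are scaled.

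In F9+RA cells Oct4 peaks at both genes met Sox17 more often than all Oct4 peaks did, which did not hold from the Sox17 side. Of the 13 Oct4 F9+RA peaks at Dab2, 8 overlapped a Sox17 peak (61.5%, exact 95% interval 31.6 to 86.1), and of the 23 at Pdgfra 11 did (47.8%, 26.8 to 69.4), against 24% of all Oct4 F9+RA peaks. Both intervals lay above that share. The Sox17 F9+RA list held 4.98 times as many peaks in the Dab2 window as in the mean window of that length, and 6.27 times at Pdgfra. How far this density bears on the overlap was not tested. In the other direction, 7 of 18 Sox17 peaks at Dab2 met an Oct4 F9+RA peak (38.9%, 17.3 to 64.3) and 9 of 17 at Pdgfra (52.9%, 27.8 to 77), against 53.1% of all Sox17 peaks, which both intervals included. The Oct4 list of F9 met 1 Sox17 peak at Dab2 (5.56%, 0.141 to 27.3) and 5 at Pdgfra (29.4%, 10.3 to 56), against 43% of all. The interval at Dab2 lay below that share.

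Sox17 peaks of F9+RA cells at Dab2 were seldom met in ES cells. Any of the 15 ES lists met 4 of 18 at Dab2 (22.2%, exact 95% interval 6.41 to 47.6) and 9 of 17 at Pdgfra (52.9%, 27.8 to 77), against 51.6% of all Sox17 F9+RA peaks. The interval at Dab2 lay below the share of all peaks. At Dab2 the 4 were all met by Sox2KE (background 42.5%), 2 by Sox2 (16.5%), 1 by Sox17 in ES cells (15.9%) and 1 by Sox17EK (19.4%). At Pdgfra 6 were met by Sox2KE, 1 by Sox2, 1 by Sox17 in ES cells and 1 by Sox17EK. Sox2KE B alone met all of those 4 and 6, and its list of 71693 peaks is the longest of the Sox lists. Sox2KE A met 2 at Dab2 and 0 at Pdgfra.

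**Figure D4:**
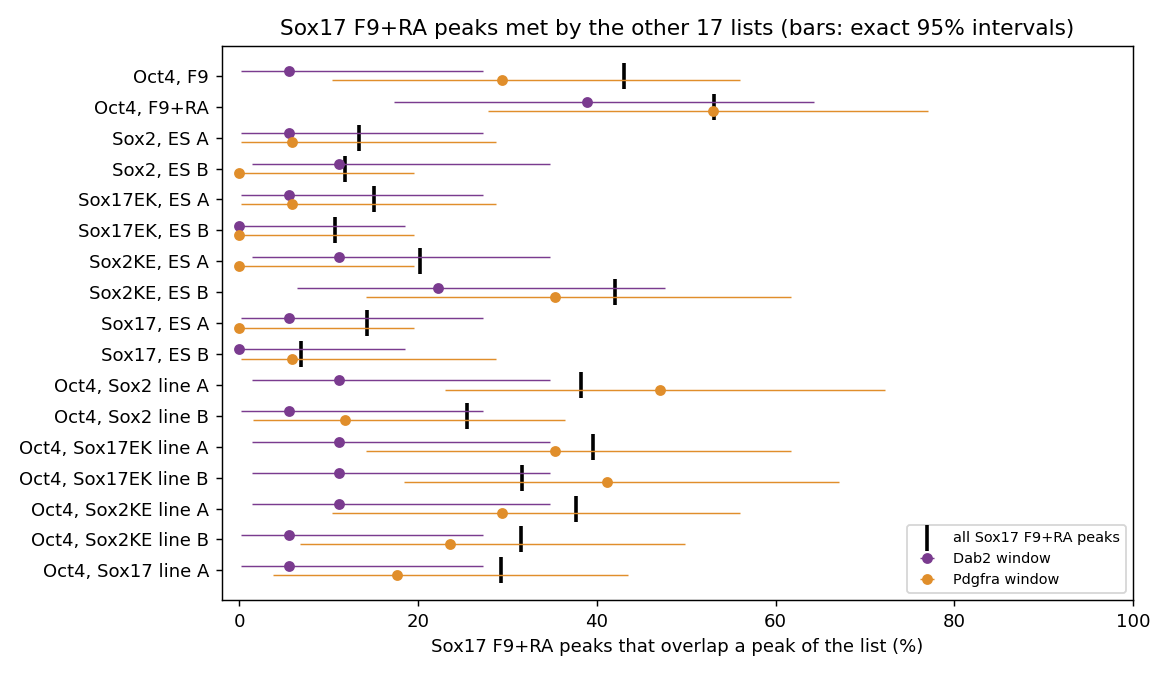
Share of Sox17 F9+RA peaks (x axis, %) that overlap a peak of each other list (y axis), for the 18 peaks at Dab2, the 17 at Pdgfra and all 39768 (black ticks); horizontal bars are exact 95% intervals, which cover counting error only. For the Oct4 F9 list the Dab2 point is at 5.56% and the tick at 43%, and for Oct4 F9+RA the Pdgfra point is on the tick.

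The Sox17 lists of ES cells held few peaks at these genes, but these lists are short (10301 peaks in A and 5836 in B). Against the mean window of the same length, their counts at Dab2 were 1.07 (A) and 0 (B) times as large. At Pdgfra these ratios were 1.42 (A) and 5.03 (B). The 2 Sox17 ES lists held 1 and 0 peaks at Dab2 (A and B) and 1 and 2 at Pdgfra, and the 2 Sox2 lists 1 and 2 at Dab2 and 3 and 3 at Pdgfra. As many peaks or more were held by 40.3% (Sox17 A), 71.3% (Sox2 A) and 44.5% (Sox2 B) of windows of the Dab2 length, and the 0 peaks of Sox17 B by 100%. For the Pdgfra length this was 34.5% (Sox17 A), 8.75% (Sox17 B), 32.1% (Sox2 A) and 23.8% (Sox2 B). Merging the 4 lists gave 2 regions at Dab2 and 4 at Pdgfra. None was held by both Sox17 libraries without Sox2 (2.41% of all 43097 regions were), 0 at Dab2 and 1 at Pdgfra by both Sox2 libraries without Sox17 (29.1% of all), and 1 and 2 by either Sox17 and either Sox2 library (15.4% of all). The region held by Sox2 alone was the one past Pdgfra at 75601451 to 75602701.

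Because the lists differ in length, the Sox17 and Sox2 libraries were compared by peaks per 10000 of their list. At Dab2 these were 0.971 and 0 for Sox17 (A and B) and 0.31 and 0.836 for Sox2, a mean of 0.485 ± 0.686 (SD, n = 2) against 0.573 ± 0.372 (SD, n = 2). The difference of -0.0878 had p = 1 by a two-sided exact permutation test, in which 2 against 2 libraries cannot go below 0.333. At Pdgfra they were 0.971 and 3.43 for Sox17 and 0.931 and 1.25 for Sox2, a mean of 2.2 ± 1.74 against 1.09 ± 0.228, with exact permutation p = 0.667. The Sox17 values rest on 1 to 2 peaks, and without Sox17 B, whose 2 Pdgfra peaks make the 3.43, the difference of 1.11 became -0.122. With all 4 lists taken at the length of the shortest, it became 0 at Pdgfra and -0.857 at Dab2.

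**Figure D5:**
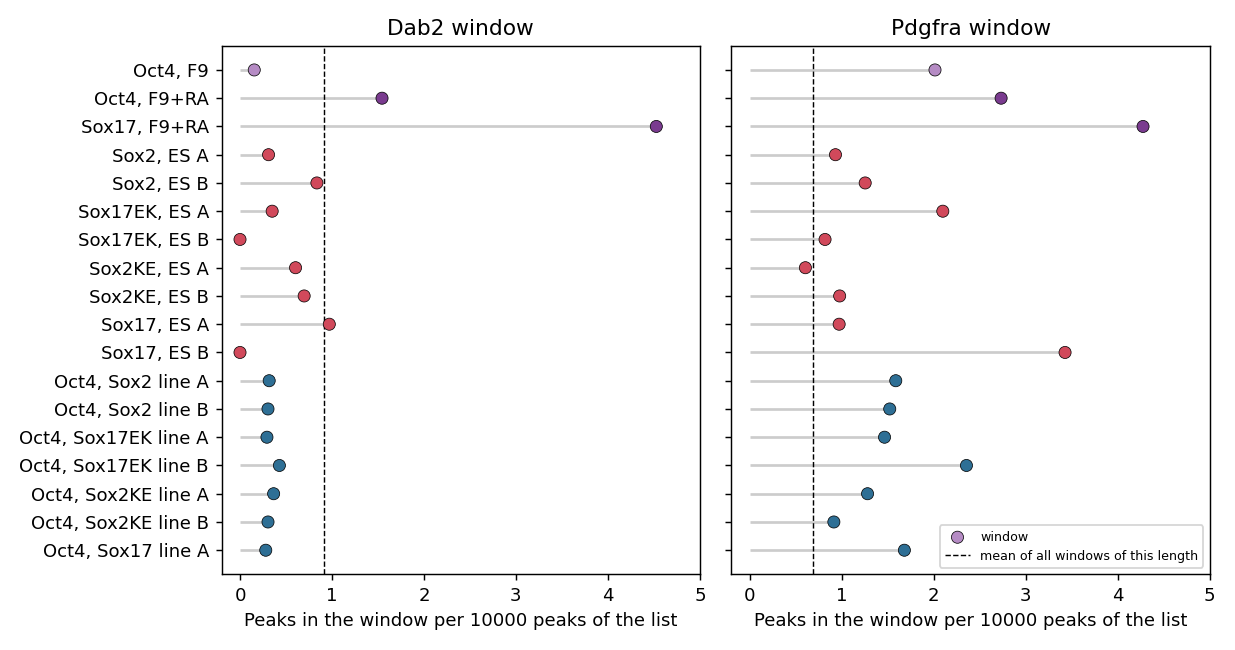
Peaks in the Dab2 window (left) and the Pdgfra window (right) per 10000 peaks of each list (x axis), with 1 point a library and a dashed line at the mean of all windows of that length. At Dab2 the point of Oct4 in F9 is at 0.155 and that of Sox17 in F9+RA at 4.53, and the ES libraries lie between 0 and 0.971; at Pdgfra Sox17 in F9+RA is at 4.27 and Sox17 ES B at 3.43.

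Grouping all ES libraries by the exchanged residue gave no difference that passed the test at either gene. Glutamate Sox libraries held 0.568 ± 0.409 peaks per 10000 at Dab2 and lysine ones 0.374 ± 0.345 (SD, n = 4 each; exact permutation p = 0.486), and the groups overlapped. At Pdgfra they held 1.49 ± 1.3 and 1.28 ± 0.579 (exact permutation p = 0.857). Oct4 in glutamate lines held 0.317 ± 0.0441 (SD, n = 3) at Dab2 and in lysine lines 0.336 ± 0.0625 (SD, n = 4; exact permutation p = 0.714). At Pdgfra Oct4 held 1.29 ± 0.383 and 1.73 ± 0.419 (exact permutation p = 0.257). After Benjamini-Hochberg adjustment over these 6 exact permutation tests each p was 1. The smallest p the larger designs allow is 0.0286 before adjustment, and a single test at that value would not pass after it. At equal list length the Pdgfra difference of the Sox libraries was 0, and over the gene span alone that of Oct4 was -0.00905 in place of -0.441. For Sox17 against Sox2, these p-values cover technical spread alone if A and B were not separate cultures, which is not stated. The tests by residue pool several lines, so their p-values mix spread between lines with spread between A and B. A and B of the same line are not independent replicates of the residue, so n counts libraries and not lines.

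The other ES lists held more peaks at Pdgfra than at Dab2, except Sox2KE A with 2 at each. At Dab2, Sox2KE held 2 in A and 5 in B (50.7% and 45.6% of windows had as many or more) and Sox17EK 1 in A (63.9%) and 0 in B (100%). Oct4 held 2 and 1 in the Sox2 line (69.1% and 64.4%), 2 and 1 in the Sox2KE line (58.3% and 61.4%), 2 in each library of the Sox17EK line (66.2% and 58.9%) and 1 where Sox17 was induced (68.1%). Counts of the ES lists at Dab2 were thus like those of common windows. At Pdgfra, Sox2KE held 2 and 7 (43.4% and 28.4%) and Sox17EK 6 and 3 (10.3% and 35.9%). Oct4 held 10 and 5 in the Sox2 line (13.6% and 17.8%), 7 and 3 in the Sox2KE line (21.1% and 30.3%), 10 in A and 11 in B of the Sox17EK line (16.1% and 6.79%), and 6 where Sox17 was induced (14.6%). No ES list reached the 1.69% of Sox17 F9+RA at Pdgfra.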

How the data were processed

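ChIP-seq peak lists of 18 of 20 samples were used. The 2 mock libraries were not analysed here. Each deposited list gives chromosome, start, end, peak name and a score; positions are in mm9 per the submitters' processing notes. The authors' score was read as 10 times −log10 p as MACS writes it, because every list starts at 50 to 50.03; no label states this. Aligner, caller settings and control were not given in the sources used here, and depth was unknown.

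Starts were taken to count from 0 and are printed from 1. Ranks order a list by score. Peaks merged where they overlapped by 1 bp or more. Regions were described singly if 6 or more lists held a peak or if a peak was in the first 10% of its list, and every Sox17 F9+RA and Sox17 ES peak in the windows is named. Members, regions, motifs and tests were chosen with earlier results of these data known. The 6 tests are exact two-sided permutation tests over libraries, adjusted by Benjamini-Hochberg. Alternatives were equal list lengths, the gene span alone, joined peaks, plain counts, midpoint matching within 200 bp, the first 50% of a list, each replicate left out and a replicate block, which was added after seeing the data for all tests but glutamate against lysine Sox. The counting and the tests were tested on simulated lists. No mm9 sequence or gene model was used here, so peaks were neither searched for motifs nor assigned to exons. RefSeq (GRCm38.p6) gave neighbouring genes and promoters; Dab2 and Pdgfra both matched by symbol. Python 3.11.15, NumPy 2.4.6, pandas 2.3.3, SciPy 1.17.1 and matplotlib 3.10.9 were used.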

Additional observations from a re-analysis of the deposited data

Results flagged for a closer look

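At Pdgfra, Sox17 ES replicate B stood apart from the other glutamate Sox libraries with 3.43 peaks per 10000 of its list, which is 2 peaks of 5836 (exact 95% interval 0.415 to 12.4). The gap to the nearest of the other 3 libraries was larger than Dixon's criterion allows for 4 samples. Oct4 in Sox17EK line B stood apart in the same way from the other Oct4 libraries of lysine lines at Pdgfra, with 2.36 peaks per 10000 (11 peaks of 46709). Chance alone passes the criterion in about 1 of 20 groups.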

How the results depend on the processing

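No alternative moved any of the 6 tests past the threshold, but several differences moved or turned. The 2 tests of Sox17 against Sox2 cannot reach it. After adjustment over 6 tests the others could do so only if all of them had their smallest p. With 1 library left out and the other p-values unchanged, no test could do so. With lists at equal length Sox17 minus Sox2 was -0.857 at Dab2 and 0 at Pdgfra, glutamate minus lysine Sox 0.428 and 0, and Oct4 0.178 and -0.913. Over the gene span alone these 6 were -0.209, 0.702, 0.0231, 0.386, -0.105 and -0.00905. With peaks less than 500 bp apart joined, the Oct4 difference at Pdgfra turned to 0.0143. With plain counts the Pdgfra difference of Sox17 and Sox2 turned to -1.5 peaks and that of glutamate and lysine Sox libraries to -0.75. Leaving out 1 library at a time, Sox17 minus Sox2 ranged from -0.573 to 0.398 at Dab2 and from -0.122 to 2.33 at Pdgfra, glutamate minus lysine Sox from 0.0598 to 0.383 at Dab2 and from -0.425 to 0.516 at Pdgfra, and Oct4 from -0.0434 to 0.0119 at Dab2 and from -0.635 to -0.233 at Pdgfra. Regions with Oct4 in F9+RA and none in F9 fell to 6 at Dab2 and 7 at Pdgfra in the first 50% of the lists, and those of F9 alone at Pdgfra became 7 at equal length and 0 in the first 50%. The share of all regions with F9+RA only fell as well in the first 50%, from 36.1% to 8.91%. Regions held by both Sox2 and no Sox17 library became 0 at Pdgfra at equal length, and ranged from 0 to 1 at Dab2 and from 1 to 2 at Pdgfra with 1 library left out. The cause was not tested.

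For the Sox libraries the replicate letters paired the samples little, with A minus B differences of 2 groups correlated between -0.089 and 0.0748. For the Oct4 libraries the correlations ran from 0.023 to 0.266. The highest was between the Sox2 and Sox2KE lines, so some pairing of Oct4 libraries remains possible. With the replicate block, Sox17 minus Sox2 was -0.0878 at Dab2 and 1.11 at Pdgfra, glutamate minus lysine Sox 0.194 and 0.219, and Oct4 -0.022 and -0.535. Exact permutation p within the letters ran from 0.389 to 1. The block leaves too few arrangements for any of these tests to reach 0.05, so no call could change. Only list lengths are known, so how far a missing peak depends on depth was not tested, and Sox17 and Sox2 lists of 0 to 3 peaks a window limit their comparison.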

Other observations

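Sox17EK A held 6 peaks at Pdgfra, of which some were weak peaks that no other Sox list of ES cells held. They lay at 75492149 to 75492437 (score 51.9, met by an Oct4 F9 peak of 70.8) and 75535874 to 75536200 (69.1, met by an Oct4 F9+RA peak of 73.1). Past Pdgfra, 75605770 to 75606472 was held by Sox2KE B (137), Oct4 in F9+RA (123) and Sox17EK B (72.2), and by no other list. Before the gene, the Oct4 F9+RA peak at 75542902 to 75543425 (198, rank 23.6%) met no other list.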
